A study of Mus musculus with 16 samples.

Results

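The smooth muscle contractile apparatus was examined in MC38 liver metastases through the 10 genes Acta2, Actg2, Myh11, Cnn1, Myl9, Mylk, Tpm1, Tpm2, Cald1 and Des. They were chosen by name and function, without a threshold on their values, and are 10 of the 21959 genes counted in each of 16 libraries. All 10 were among the 13968 genes with enough counts to be tested. Every mouse was a male C57BL/6 host, 6 weeks old at the start, in which MC38 colon adenocarcinoma cells had been injected into the inferior hemispleen, and each group holds 4 libraries of tumor tissue, called mice 1 to 4 here. The control group received PBS. The second group received SB525334, an inhibitor of TGF-β receptor I (ALK5), at 20 mg/kg by daily oral gavage. The third received KN046, an antibody against PD-L1 and CTLA-4, at 10 mg/kg intraperitoneally 2 times a week, and the combination group received both. The cells came from 1 cell line, and the tissue was bulk tumor, so a lower level can come from fewer cells of a type or from less RNA per cell, and these cannot be told apart here.

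Smooth muscle cells and myofibroblasts contract when myosin pulls on actin filaments. Calcium-bound calmodulin activates myosin light chain kinase, which phosphorylates the regulatory light chain, while other kinases set how fast that phosphate is removed. Tropomyosin, caldesmon and calponin lie along the actin filament and tune its access to myosin. TGF-β signaling through ALK5 is a classical inducer of Acta2, whose product α-SMA marks the myofibroblastic type of cancer-associated fibroblasts (myCAFs), and serum response factor activates many contractile genes through a DNA element called the CArG box.

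Total counts ran from 18368994 to 23877131 per library. Control mice 1 and 2 resembled each other, as did control mice 3 and 4, more closely than any other mice of a group. The median chi-square of a gene between the libraries was 1.26 and 0.957 in these pairs, against 2.82 in the next closest pair, and 24.9% and 18.1% of genes still differed past the 95% point of counting noise, and the 4 were analysed as 4 libraries. The labels do not state whether each library is a separate animal, so p-values measure the spread between libraries. Calls lost when the counts of each control pair were summed are named or counted beside the genes. Defining markers of other cells moved with treatment. The summed level of 15 hepatocyte genes was 14051 to 15312 CPM (counts-per-million, a gene's count scaled for library size and composition) in control mice, 304 to 1706 in SB525334 mice, 8610 to 17870 in KN046 mice and 12.8 to 20.5 in the combination group, where Hnf4a was at 0 counts in 3 of 4 mice. Markers of splenic mesenchyme, 4 genes in all, summed to 0 to 0.394 CPM in the control group and to 4.41 to 11.7 CPM in the combination group. In every other mouse the splenic markers summed to at most 0.394 CPM. The labels give all 16 libraries as liver metastases. Treatment and the tissue sampled cannot be told apart in comparisons with the combination group, and the part these markers have in the results below was not tested.

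Acta2 and Myl9 held CArG-type boxes before the transcription start of the RefSeq table, a strict box in Myl9 and looser forms in both. RefSeq promoters were found for 8 of the 10 members, all but Actg2 and Myh11, and the 250 bases before each start were searched on both strands. For Acta2 and Myl9 that start lies inside the gene bounds of GENCODE, whose start is farther upstream, so the sites printed fall within the GENCODE gene coordinates given below. No other member searched held either form. Acta2 and Myl9 also correlated across the mice, as described further on, and whether these sites have a part in that was not tested. Capitals mark the box, and each line is a stretch of 30 bases in GRCm39, read 5′ to 3′ along the gene.
Acta2, chr19:34232838-34232867, minus strand, 84 to 75 bases before the RefSeq start: gtgctgaggtCCCTATATGGttgtgttaga
Acta2, chr19:34232788-34232817, minus strand, 34 to 25 bases before the RefSeq start: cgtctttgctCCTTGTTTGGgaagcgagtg
Myl9, chr2:156617213-156617242, plus strand, 161 to 152 bases before the RefSeq start: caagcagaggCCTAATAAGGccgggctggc
Myl9, chr2:156617275-156617304, plus strand, 99 to 90 bases before the RefSeq start: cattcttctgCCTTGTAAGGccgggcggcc

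Only the first Myl9 site is a strict CArG box, with a core of A and T alone between its outer C and G pairs. The others hold 1 G or C in that core, a looser form searched after the strict one. The strict form was present in 1.47% of 32851 promoters of the same length and in 1 of the 8 members, and the looser form in 7.24% and in 2. The MCAT element CATTCC, which binds TEAD factors and was read on either strand, was found in 4 of 8 members, Acta2, Mylk, Tpm1 and Cald1, against 12.6% of promoters, and overlapped none of the CArG boxes. The Smad sequence GTCTAGAC was in none of the 8 and in 0.167% of promoters. A match of letters describes the window and does not show that a factor binds there.

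The 10 genes covered a wide range of levels. Divided by the length of their exons, so that genes can be compared, Tpm1 (tropomyosin 1) was highest at 92.3 CPM per kilobase over the 16 mice, followed by Cald1 (caldesmon) at 49.5 and Tpm2 (tropomyosin 2) at 28.6. Acta2 came next at 12.6 CPM per kilobase. The ranges of these 4 genes over mice did not overlap from each to the next. All 3 of the leading genes also have non-muscle transcripts, and counts per gene do not separate these from the smooth muscle ones. Mylk (myosin light chain kinase) followed at 4.24 CPM per kilobase, then Des (desmin, the muscle intermediate filament) at 2.02, Myl9 (the regulatory light chain) at 1.78 and Actg2 (enteric smooth muscle actin) at 1.58. Des exceeded Myl9 in 10 of 16 mice and Myl9 exceeded Actg2 in 9, so these 3 neighbours had no stable order. Myh11 (the smooth muscle myosin heavy chain) and Cnn1 (calponin 1), the markers of mature smooth muscle, were lowest at 0.492 and 0.236 CPM per kilobase. Myh11 was above Cnn1 in 14 of 16 mice.

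Spread between mice ran in nearly the opposite order. The highest mouse exceeded the lowest by 1.45-fold for Tpm1, 1.53-fold for Cald1 and 1.80-fold for Tpm2, but by 3.89-fold for Acta2, 5.41-fold for Actg2, 9.42-fold for Myh11 and 32.8-fold for Cnn1. The biological coefficient of variation within groups, which removes counting noise, was 10.9% for Cald1 and 13.2% for Tpm1 against a median of 17% over all genes tested. It was above that median for the other 8 members and reached 28.7% for Acta2, 30.9% for Myl9, 52.9% for Myh11 and 60.7% for Cnn1. For Cnn1 the counts were 1 to 34 per library, so its values carry counting error as well, and 35.12% of its exon bases are shared with Elof1 on the opposite strand.

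**Figure D1:**
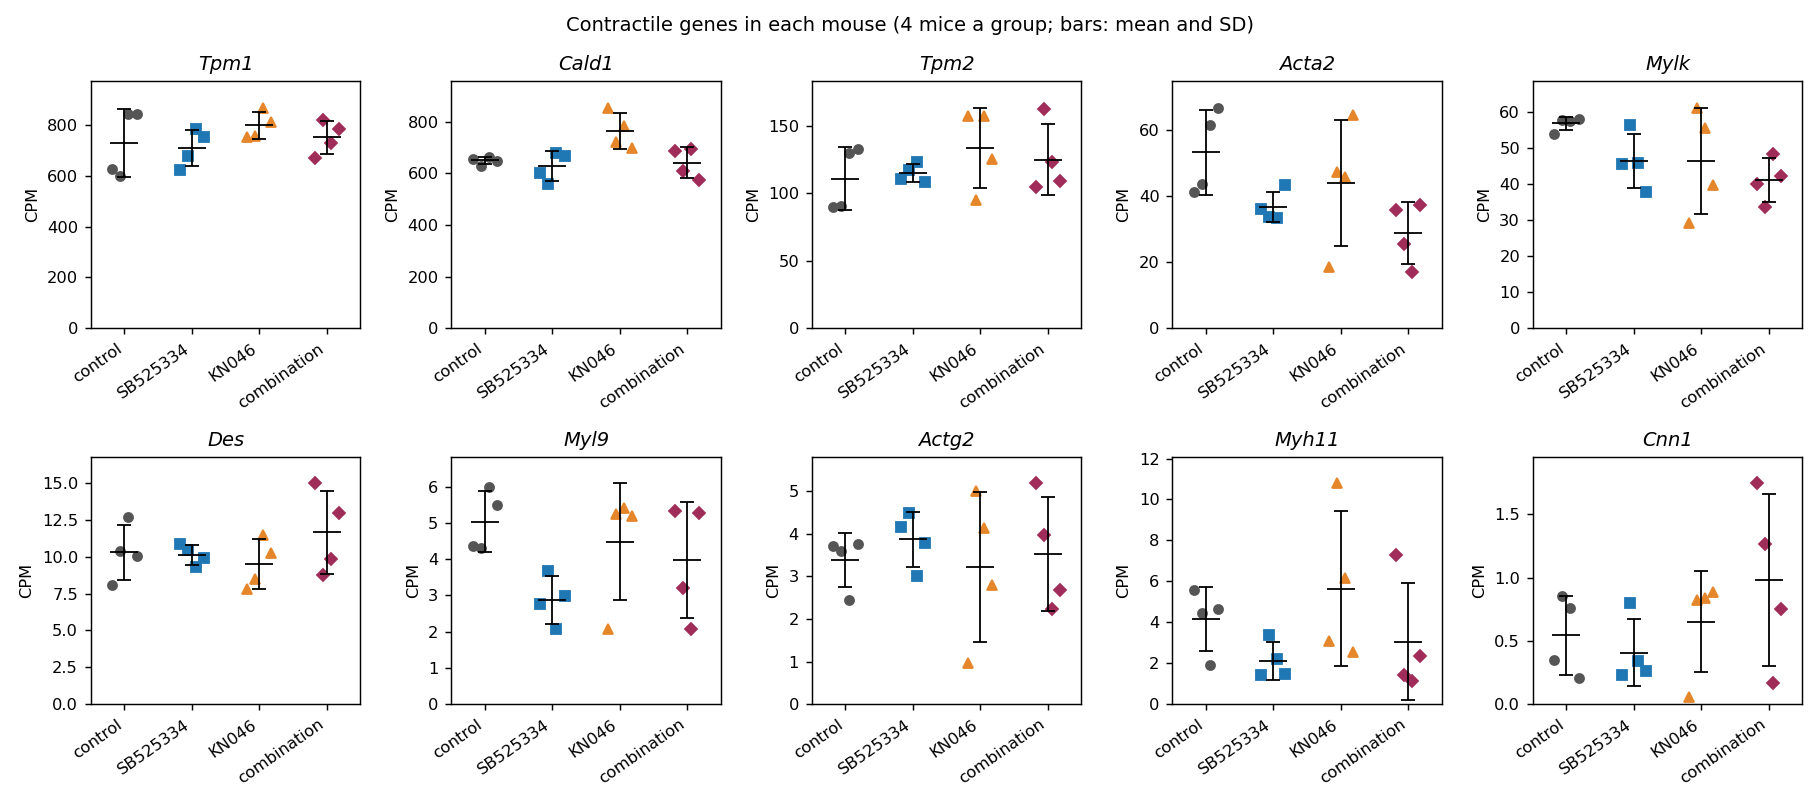
Level of each of the 10 genes in CPM (vertical axis, from 0) in each mouse, by treatment group. Points are mice and bars the mean and SD of 4; Acta2 lay at 41.2 to 66.9 CPM in control mice and at 17.2 to 37.3 CPM in the combination group.

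Tagln, the gene of transgelin and one of the most abundant transcripts of mature smooth muscle, was almost absent. It had 0 to 8 counts per library and 27 in all 16, too few to test. Of its exon bases 66.73% are shared with other annotated genes. The share is 6.02% for Pcsk7 on the opposite strand, the only gene counted here among them. Myocd, the coactivator that drives the mature smooth muscle program, had 1 count in 1 control mouse, 4 in 1 combination mouse and none elsewhere.

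Acta2 had the lowest adjusted p of the contractile genes among the comparisons with control, and it did not pass the test. Acta2 (ENSMUSG00000035783, GRCm39 chr19:34217737-34232990, minus strand) had 41.2, 43.6, 61.6 and 66.9 CPM in control mice 1 to 4 and 35.8, 25.5, 17.2 and 37.3 CPM in combination mice 1 to 4. All 4 combination mice lay under the lowest control mouse. The means were 53.3 ± 12.8 and 29.0 ± 9.42 CPM (SD, n = 4), so the combination mean was 54.4% of control by the fit, a log2 fold change of −0.88 (SE 0.29, 95% interval −1.50 to −0.26, adjusted p = 0.066, edgeR quasi-likelihood test with Benjamini-Hochberg adjustment over all genes). SB525334 alone gave 36.3, 33.9, 33.3 and 43.3 CPM. These 4 values sat closely together, and the highest reached the range of the lower control pair. The log2 fold change was −0.54 (SE 0.29, edgeR adjusted p = 0.347). With KN046 alone Acta2 had 18.5, 47.4, 45.7 and 64.7 CPM. KN046 mouse 1 stood well below the other 3, which spread over the control range, and the log2 fold change was −0.27 (SE 0.29, edgeR adjusted p = 0.6).

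The effect of SB525334 averaged over mice without and with KN046, 8 mice against 8, placed Acta2 at 67.3% of the level without the inhibitor, a log2 fold change of −0.57 (SE 0.21, 95% interval −1.01 to −0.14, adjusted p = 0.0542 by edgeR). This call turned on single libraries. Without KN046 mouse 1 the averaged log2 fold change was −0.69 with an edgeR adjusted p of 0.00436, and without combination mouse 1 or 4 the adjusted p was 0.0407 and 0.0469. For the combination against control the edgeR adjusted p was 0.0109 without KN046 mouse 1 and 0.0485 without combination mouse 1. The adjusted p was 0.025 by DESeq2 and 0.214 by edgeR with each control pair summed. For the combination against KN046, −0.61 on the log2 scale (edgeR adjusted p = 0.135), it was 0.0172 without KN046 mouse 1. Acta2 shares 9.33% of its exon bases with Stambpl1 on the opposite strand.

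Over all members the test called none in any of the 7 comparisons made. With SB525334 against control 0 of 10 passed an edgeR adjusted p of 0.05, where 9.61% of all genes tested did, and 1 had an unadjusted p under 0.05, against 18.9% of all genes. KN046 against control gave 0 of 10, with 4% of all genes called and 1 member against 23.1% at the unadjusted threshold. With the control pairs summed this comparison called 0 of 14241 genes. Without KN046 mouse 1 it called 10 genes higher and 11 lower. The combination against control gave 0 of 10, with 11.1% called and 2 members against 22.1% at the unadjusted threshold. For the combination against KN046 the counts were 0 of 10, 24.4% of all genes, and 1 member against 39.0% unadjusted. For the combination against SB525334 they were 0 of 10, 3.57%, and 0 members against 9.19%. The averaged SB525334 effect gave 0 of 10 where 22.4% of genes were called, and 3 members against 36.9% unadjusted. The interaction, which asks whether the SB525334 effect differed with KN046, called 0 of 10 where 4.28% of genes were called, and 0 members against 16.6% unadjusted. DESeq2 called 1 member in each of 3 comparisons, Acta2 in the combination against control and in the averaged SB525334 effect, and Cald1 in the combination against KN046.

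The median log2 fold change of the 10 members was −0.17 for SB525334, 0.03 for KN046 and 0.01 for the combination, each against the same control mice, where the medians of all genes were 0.00, −0.03 and 0.01. For the averaged SB525334 effect it was −0.11, with 7 members below 0 and 3 above, beside 0.00 over all genes. In the interaction the lowest adjusted p of a member was 0.517 (Myl9, log2 0.64, edgeR).

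**Figure D2:**
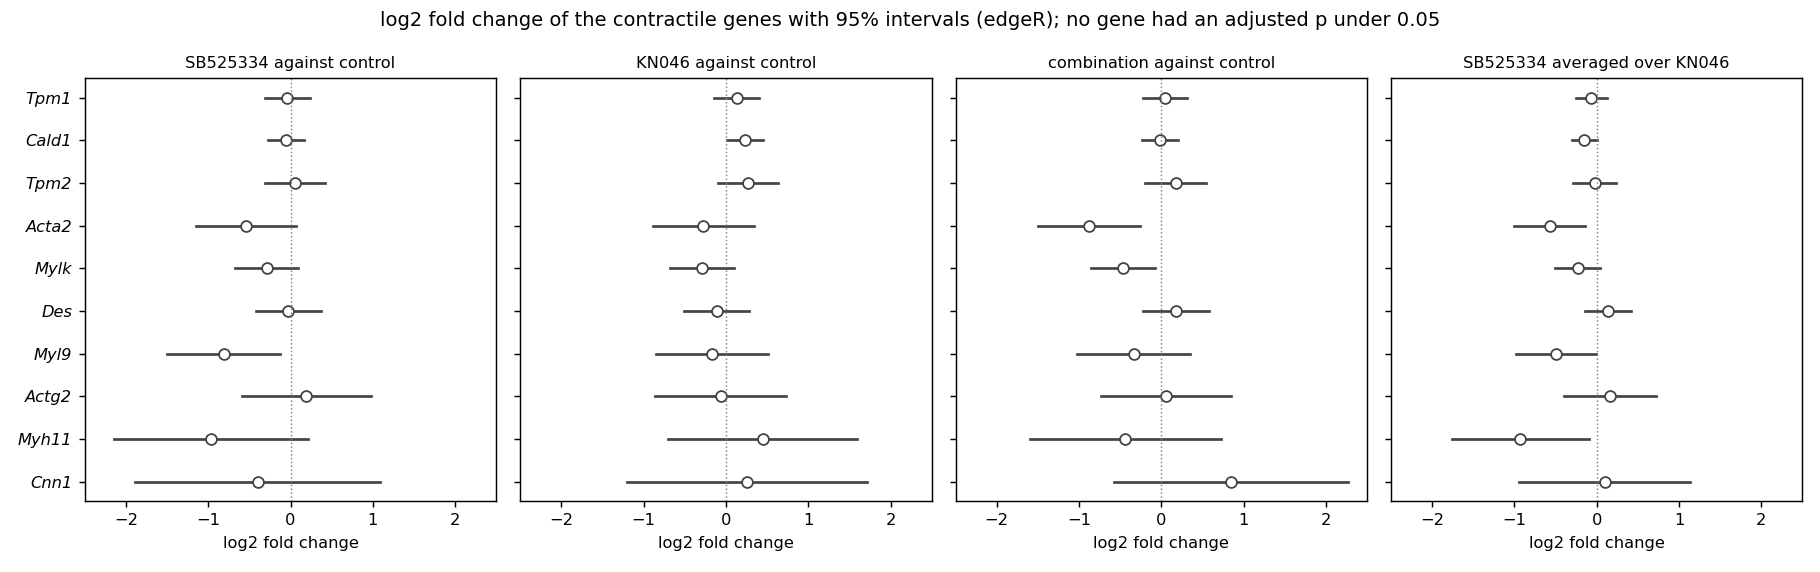
Log2 fold change (horizontal axis) of the 10 genes, ordered from the highest level per kilobase at the top, for each treatment against control and for the averaged SB525334 effect. Circles are edgeR estimates and lines 95% intervals; intervals are narrow for Tpm1, Cald1 and Tpm2 and widest for Myh11 and Cnn1, and no gene passed the adjusted threshold.

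Myl9 was the 1 member whose SB525334 and control mice did not overlap. Myl9 (ENSMUSG00000067818, chr2:156617084-156623579, plus strand) had 4.37, 4.31, 5.98 and 5.49 CPM in control mice and 2.76, 3.66, 2.07 and 2.97 CPM with SB525334. Every SB525334 mouse was lower, as was true of 13.3% of all genes tested. The means were 5.04 ± 0.831 and 2.86 ± 0.658 CPM, a log2 fold change of −0.81 (SE 0.33, 95% interval −1.50 to −0.12, edgeR adjusted p = 0.161). With KN046 the values were 2.08, 5.25, 5.42 and 5.20 CPM, and in the combination group 5.34, 3.20, 2.07 and 5.28 CPM. Mouse 1 of the KN046 group was again low, and combination mice 1 and 4 lay within the control range. For the averaged SB525334 effect the log2 fold change was −0.49 (edgeR adjusted p = 0.13), and without KN046 mouse 1 it was −0.60 with an adjusted p of 0.0406.

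Mylk, which phosphorylates the Myl9 product, varied little within the control group. Mylk (chr16:34565580-34822790, plus strand) had 54.0, 57.7, 57.6 and 58.0 CPM in control mice and 40.1, 33.7, 48.4 and 42.3 CPM in the combination group. These 2 groups did not overlap. Acta2 and Mylk were the members that lay wholly lower in the combination group, an ordering shown by 12.1% of all genes tested. The log2 fold change of Mylk was −0.47 (SE 0.18, 95% interval −0.85 to −0.08, edgeR adjusted p = 0.129), and 0.0444 was its adjusted p without KN046 mouse 1. SB525334 alone gave 45.6, 56.3, 45.9 and 37.9 CPM, and KN046 alone 29.3, 61.2, 55.7 and 39.6 CPM. Both groups overlapped the control group, at a log2 fold change of −0.29 each (edgeR adjusted p = 0.442 and 0.35).

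Of the smooth muscle actin and myosin that complete the apparatus, neither separated the groups. Myh11 (chr16:14012399-14109236, minus strand) had 5.55, 4.45, 1.93 and 4.65 CPM in control mice, 1.40, 3.38, 2.19 and 1.46 CPM with SB525334, 3.09, 10.8, 6.15 and 2.55 CPM with KN046, and 7.29, 1.43, 1.15 and 2.36 CPM in the combination group. The averaged SB525334 effect was −0.93 on the log2 scale (SE 0.39, 95% interval −1.75 to −0.10, edgeR adjusted p = 0.097). Combination mouse 1 held more Myh11 than any other mouse of its group or of the SB525334 group. Without it the averaged log2 fold change was −1.34 with an edgeR adjusted p of 0.00759, and the combination against KN046 moved from −0.88 to −1.76 (adjusted p = 0.245 and 0.0173). The splenic mesenchyme markers summed to 11.7 CPM in that mouse and to 4.41 to 11.5 CPM in the other combination mice.

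Actg2 (chr6:83489887-83513551, minus strand) averaged 3.38 ± 0.633 CPM in the control group, 3.87 ± 0.638 with SB525334, 3.23 ± 1.76 with KN046 and 3.52 ± 1.33 in the combination group. All 3 treated groups overlapped control, and the log2 fold changes lay between −0.06 and 0.19. Within the KN046 group mouse 1 had 0.959 CPM and the other 3 had 2.81 to 5.01 CPM. Cnn1 (chr9:22010512-22020926, plus strand) averaged 0.543 ± 0.312, 0.406 ± 0.265, 0.650 ± 0.399 and 0.983 ± 0.680 CPM in the control, SB525334, KN046 and combination groups. Its 95% interval for the combination against control, −0.57 to 2.27 on the log2 scale, left room for changes in both directions.

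The abundant actin-filament regulators Tpm1, Tpm2 and Cald1 bounded any change more tightly. Tpm1 (chr9:66929870-66956953, minus strand) averaged 727 ± 134 CPM in control mice, 708 ± 72.4 with SB525334, 797 ± 54.0 with KN046 and 750 ± 65.1 in the combination group. Its averaged SB525334 effect was −0.06 on the log2 scale with a 95% interval of −0.25 to 0.13 (edgeR adjusted p = 0.64). Tpm2 (chr4:43514697-43524949, minus strand) averaged 111 ± 23.6, 115 ± 6.75, 134 ± 29.8 and 125 ± 26.2 CPM in the same order of groups, and its averaged effect was −0.02 with an interval of −0.28 to 0.24. In both tropomyosins the control group split into its 2 pairs. Control mice 1 and 2 had 627 and 597 CPM of Tpm1, and control mice 3 and 4 had 844 and 843 CPM.

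Cald1 was the 1 member to lie wholly higher with KN046. Cald1 (ENSMUSG00000029761, chr6:34575435-34752408, plus strand) had 658, 631, 665 and 647 CPM in control mice and 855, 723, 783 and 699 CPM with KN046. The groups did not overlap, an ordering shown by 4.94% of all genes tested. The means were 650 ± 15.1 and 765 ± 69.6 CPM, a log2 fold change of 0.23 (SE 0.10, 95% interval 0.02 to 0.45, edgeR adjusted p = 0.185). The combination group had 688, 609, 696 and 574 CPM. All 4 values lay under the lowest KN046 mouse, as held for 12.4% of all genes in this direction, at a log2 fold change of −0.25 against KN046 (SE 0.10, edgeR adjusted p = 0.0803, DESeq2 adjusted p = 0.0396). With SB525334 alone Cald1 averaged 628 ± 57.7 CPM, a log2 fold change of −0.05 with a 95% interval of −0.27 to 0.17. No member separated the combination group from the SB525334 group, where 2.43% of all genes lay wholly higher and 4.62% wholly lower.

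Des (chr1:75320511-75345223, plus strand), which marks hepatic stellate cells as well as muscle, had 8.09, 10.4, 12.7 and 10.1 CPM in control mice and 15, 8.77, 9.88 and 13 CPM in the combination group. The groups overlapped, and the log2 fold change was 0.18 (SE 0.19, edgeR adjusted p = 0.628). Beside it, stellate cell markers moved strongly. Of 8 stellate markers tested 5 fell in the combination group against control, where 9.74% of all genes fell, namely Lrat, Reln, Colec11, Hgf and Cygb, and Lrat and Reln were at 0 counts in at least 1 combination mouse. Reln averaged 11.5 ± 3.69 CPM in control mice and 0.156 ± 0.243 in the combination group. The summed level of the whole list, most of it in genes other than these 5, was 864 to 960 CPM in control mice and 934 to 968 CPM in the combination group. Of 9 fibroblast markers 3 fell against control, Col1a2 (not without combination mouse 2 or 4), Lum and Postn, and none rose. Col1a2 and Postn no longer passed with the control pairs summed (edgeR adjusted p = 0.0821 and 0.0797). In the averaged SB525334 effect the same 3 fell and Col3a1 and Thy1 rose, 5 of 9 where 22.4% of all genes were called. Of these only Lum passed with the control pairs summed. In the combination against KN046 Lum and Postn fell and Col3a1 and Thy1 rose, 4 of 9 where 24.4% of all genes were called. The list had a summed level of 7503 to 8179 CPM in control and 6145 to 11432 CPM in the combination group.

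Across the 16 mice Acta2 and Myl9 kept step. The correlation of log2(CPM + 1) was 0.79 by Pearson's r and 0.75 by Spearman's rank coefficient, and after adjustment over the 45 pairs of members the permutation p was 0.00945 for r and 0.0459 for the rank coefficient. Without the 2 mice farthest from the median Acta2 level r was 0.63, and with each control pair averaged it was 0.77. With the group means removed r was 0.89. Within groups of 4 mice r was 0.93 in control, 0.19 with SB525334, 0.95 with KN046 and 0.99 in the combination group, values that describe 4 points each. KN046 mouse 1 and combination mouse 3 had the lowest Acta2 of all, with 18.5 and 17.2 CPM, and their Myl9 was 2.08 and 2.07 CPM.

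**Figure D3:**
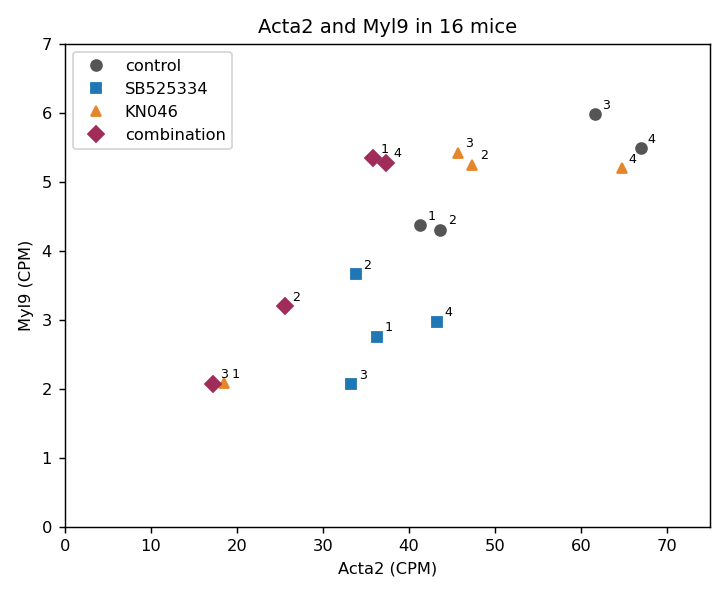
Acta2 (horizontal axis, CPM) against Myl9 (vertical axis, CPM) in 16 mice, numbered within the 4 groups. KN046 mouse 1 and combination mouse 3 lie together at the lower left, and control mice 3 and 4 at the upper right.

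Tpm1 and Tpm2 were the only other pair to pass, and by rank alone. Their r was 0.71 and their rank coefficient 0.72 (permutation p adjusted over 45 pairs 0.0592 and 0.049), with r = 0.66 without the 2 farthest mice and 0.67 with group means removed. The members fell into 2 sets, a division made after the correlations were seen. Among Acta2, Actg2, Myh11, Cnn1, Myl9, Mylk and Des all 21 pairs had r above 0, from 0.02 to 0.79 with a median of 0.43. Among Tpm1, Tpm2 and Cald1 the 3 pairs lay between 0.31 and 0.71. Between the sets 5 of 21 pairs were above 0 and the median was −0.17. Removing group means left the first set at 0.20 to 0.89, and the median between sets at −0.20. The libraries share depth and composition, so this is a description of 16 mice.

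**Figure D4:**
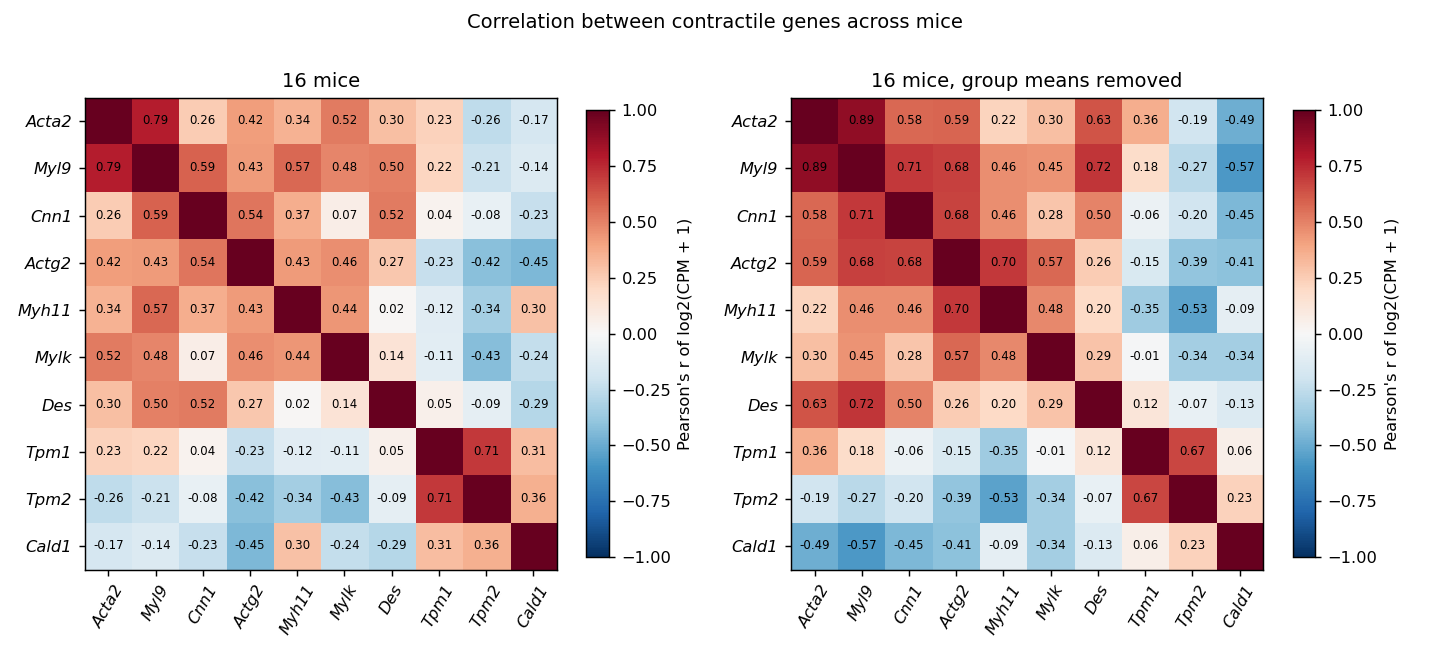
Pearson's r of log2(CPM + 1) for each pair of the 10 genes over 16 mice, as measured (left) and after subtracting group means (right). Red is positive and blue negative; Acta2 and Myl9 stand at 0.79 and 0.89, and most pairs of Tpm1, Tpm2 or Cald1 with another gene are near or below 0.

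The genes most like Acta2 over the 16 mice, among 12829 with a mean of at least 1 CPM, were mt-Nd1 (r = 0.84), Mmp23 (0.83), Cebpa (0.82), Marchf3 (0.82) and Tm6sf2 (0.81). With group means removed they were Psmb10 (0.87), Marchf3 (0.86), Leprotl1 (0.85), Bst2 (0.85) and Pdgfb (0.85). For Myh11 they were Map4k2 (0.91), Pigb (0.90), Prpf4b (0.88), Secisbp2 (0.88) and Xndc1 (0.87), of which Pigb, Xndc1 and Secisbp2 stayed among the first 5 with group means removed. None of these belongs to the contraction lists described next.

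Several genes that control contraction passed the test. Of 15 contraction signaling genes 14 were tested, and 7 fell in the averaged SB525334 effect, none rose, against 14.8% of all genes tested that fell. Their median log2 fold change was −0.23. Against control fewer were called, all lower. With SB525334 these were Agtr1a, Ednra and Rock1, 3 of 14 where 9.61% of all genes were called. In the combination group they were Agtr1a and Ednra, 2 of 14 where 11.1% were called. Against KN046 the combination called 7 of 14, all lower, where 24.4% of all genes were called. The calls of Ednra, Rock1, Rock2, Ppp1r12a and Ppp1r12b were lost there with the compared groups fitted alone. Over all alternative settings these passed in 25, 16, 20, 18 and 15 of 26. Agtr1a, the angiotensin II receptor that triggers contraction, showed the largest difference of the list. It averaged 7.78 ± 1.72 CPM in the control group, 1.14 ± 0.371 with SB525334, 10.8 ± 3.44 with KN046 and 0.327 ± 0.082 in the combination group. No mouse given SB525334 reached the lowest mouse without it. The averaged log2 fold change was −3.89 (SE 0.22), and the effect was larger in the presence of KN046, by −2.27 on the log2 scale in the interaction (edgeR adjusted p = 0.0054). The 15 hepatocyte markers summed on average to 14733, 1106, 14100 and 16.5 CPM in the same order of groups. All 15 were also called lower in the interaction, where 4.28% of all genes were called. Their part in the Agtr1a levels was not tested.

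Ednra, the endothelin receptor of smooth muscle, averaged 5.58 ± 0.26 CPM in control mice, 2.84 ± 0.239 with SB525334, 5.79 ± 3.42 with KN046 and 2.57 ± 0.364 CPM in the combination group. Its averaged log2 fold change was −1.07 (SE 0.21, edgeR adjusted p = 0.0012). With the control pairs summed this passed. The calls of Ednra for SB525334 and for the combination, each against control, were lost there (edgeR adjusted p = 0.199 and 0.099). Over all alternative settings the SB525334 call against control passed in 8 of 26 and the combination call in 21 of 26. Rock1 and Rock2 are kinases that keep the light chain phosphorylated. In the averaged effect they fell by 0.78 and 0.52 on the log2 scale (edgeR adjusted p = 0.0022 and 0.0086). Rock2 was not called against control with any treatment. The call of Rock1 for SB525334 against control passed in 20 of 26 alternative settings and not with the control pairs summed. Prkg1, the cGMP-dependent kinase that relaxes smooth muscle, fell by 1.35, at 3 to 34 counts per library (edgeR adjusted p = 0.0068). Ppp1r12a, the myosin phosphatase subunit, fell by 0.33 (not with the control pairs summed, edgeR adjusted p = 0.0565). The serum response factor coactivator Mrtfb fell by 0.29 with an edgeR adjusted p of 0.0488 that passed in 8 of 25 alternative settings. Srf itself averaged 72.6 ± 7.82 CPM in control and 72.0 ± 4.70 with SB525334 and was called in no comparison. Endothelial markers moved with these genes, since 5 of 6 fell in the averaged SB525334 effect, and so did all 15 hepatocyte markers. Their part in the lower receptor and kinase levels was not tested.

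Among 20 further genes of smooth muscle cells, such as cytoskeletal partners and ion channel subunits, 17 were tested. In the averaged SB525334 effect 4 fell and none rose, where 14.8% of all genes fell, with a median log2 fold change of −0.28. Itga8, the integrin α8 chain of smooth muscle and stellate cells, averaged 2.85 ± 1.30 CPM in control mice and 0.550 ± 0.165 with SB525334. The groups did not overlap, and the log2 fold change was −2.36 (SE 0.43, edgeR adjusted p = 0.00069). In the combination group it averaged 1.61 ± 0.484 CPM, and it was not called there. Ppp1r14a, an inhibitor of myosin phosphatase, averaged 1.63 ± 0.349 CPM in control and 0.652 ± 0.165 with SB525334. The log2 fold change of −1.31 (edgeR adjusted p = 0.0248) passed in 19 of 26 alternative settings and not with the control pairs summed. Nexn (nexilin), an actin-binding partner, fell by 0.72 on the log2 scale in the averaged effect (edgeR adjusted p = 0.0134). The combination against control called none of the 17, where 11.1% of all genes were called.

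Of the 12 non-muscle counterparts of the contractile proteins, 1 was called against control, Myh10 in the combination group, where 11.1% of all genes were called. This non-muscle myosin heavy chain averaged 13 ± 4.85 CPM in control mice, 7 ± 0.60 with SB525334, 13.2 ± 4.82 with KN046 and 2.90 ± 0.991 in the combination group. All 4 combination mice lay below every other mouse, at a log2 fold change of −2.16 against control (SE 0.31). Of all genes tested 12.1% lay wholly lower in the combination group than in control, 12.4% than in KN046 and 4.62% than in SB525334 mice. The others were not called against control with any treatment. Against KN046, 3 of the 12 were called in the combination group, where 24.4% of all genes were. Myh10 was lower, at a log2 fold change of −2.18. Cnn2 (calponin 2) and Myl6 (the essential light chain) rose by 0.59 and 0.44 on the log2 scale (edgeR adjusted p = 0.0041 and 0.0334), Myl6 in 19 of 26 alternative settings. Actb averaged 3395 ± 641 CPM in control and 3391 ± 148 CPM in the combination group and was called in no comparison.

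**Figure D5:**
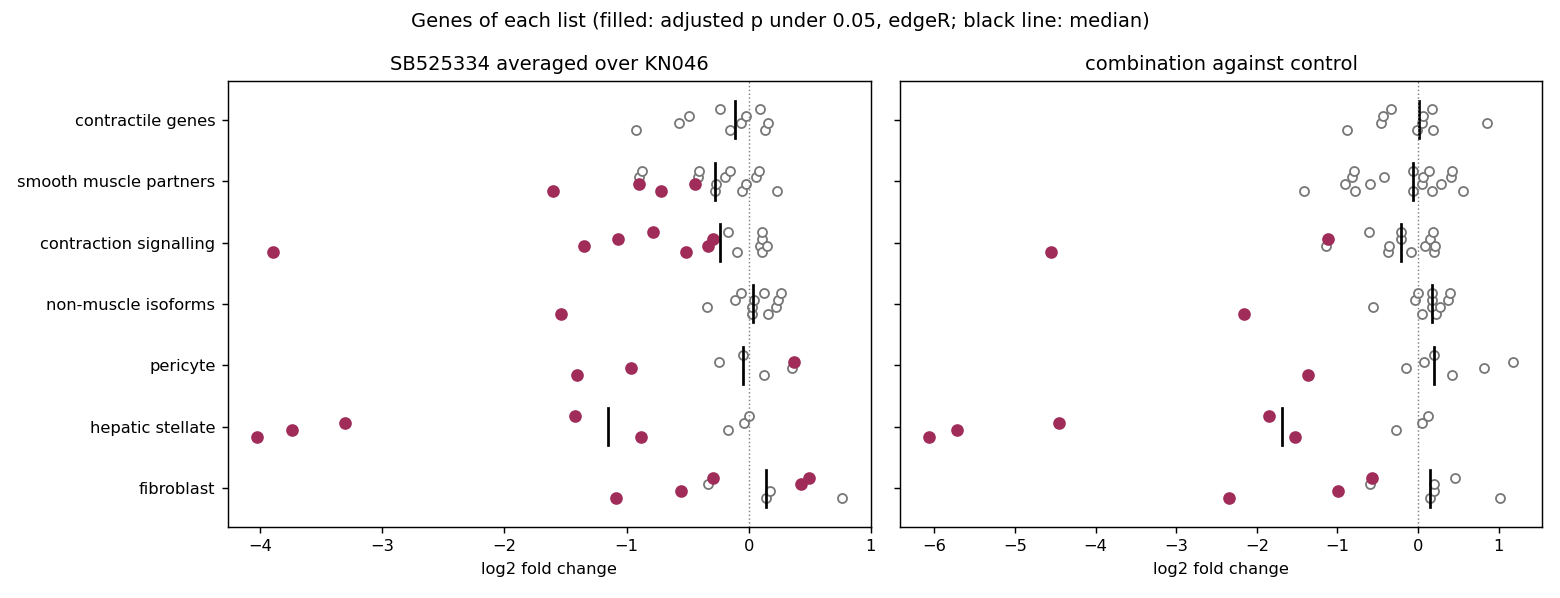
Log2 fold change (horizontal axis) of the tested genes of 7 lists for the averaged SB525334 effect (left) and the combination against control (right). Each circle is a gene, filled where the edgeR adjusted p was under 0.05, and the black line is the list's median; no contractile gene is filled, while Agtr1a lies far left among contraction signaling genes at −3.89 and −4.56.

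Pericytes, which wrap small vessels and also express Acta2, were read by 7 tested markers. With SB525334 against control 2 of 7 fell, Rgs5 and Abcc9, where 9.61% of all genes were called. For the combination against control 1 of 7 fell, Rgs5, where 11.1% of all genes were called. In the averaged SB525334 effect Rgs5 and Abcc9 fell and Pdgfrb rose, 3 of 7 where 22.4% of all genes were called. The combination against KN046 called the same 3 genes, where 24.4% of all genes were called. Kcnj8, a potassium channel subunit, was higher in the combination group than with SB525334 alone. It was the 1 call of 7 in that comparison, where 3.57% of all genes were called. Rgs5 averaged 10.4 ± 2.79 CPM in the control group, 5.89 ± 0.293 with SB525334, 16.2 ± 2.33 with KN046 and 4.05 ± 1.07 in the combination group. Against control it fell by 0.82 on the log2 scale with SB525334 (edgeR adjusted p = 0.0143) and by 1.36 in the combination group. The SB525334 call was lost without control mouse 1 or 2 and with the control pairs summed (edgeR adjusted p = 0.0587). That of Abcc9 was lost in 10 of 26 alternative settings, the summed pairs among them. Pdgfrb rose by 0.37 on the log2 scale in the averaged effect (edgeR adjusted p = 0.0375, past the threshold in 14 of 25 alternatives). Its call for the combination against KN046 passed in 12 of 26 alternatives. Striated muscle markers, which would mark body wall tissue, gave 0 calls among 8 tested in all 7 comparisons. Of all genes 3.57% to 24.4% were called in these. At an unadjusted edgeR p under 0.05, 4 of 8 passed with SB525334 against control, 5 with KN046 and 2 with the combination. The shares of all genes were 18.9%, 23.1% and 22.1%. The list's median log2 fold changes were −0.65, −0.70 and −0.46. Its summed level was 29.8, 22.3, 67.3 and 70.0 CPM in control mice 1 to 4 and 21.6 to 41.0 CPM in the other groups. The epithelial list of keratins and adhesion genes, 4 tested, holds Krt8 and Krt18, which hepatocytes also express, and summed to 143 to 246 CPM in control mice and to 5.35 to 13.4 CPM in the combination group.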

How the data were processed

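Tumor RNA of 16 mice, 4 per group, was examined. Per the labels, the authors used Cutadapt 2.7 for trimming, HISAT2 2.2.1 for alignment to GRCm39 and HTSeq 2.0.4 for counts per gene. The settings for strand and for reads with several alignments are not given in the sources used here, so overlapping genes and close paralogs (Acta2 and Actg2, Tpm1 and Tpm2) are uncertain. The deposited raw counts were used, and the deposited DESeq2-normalized values were not. Groups were taken from the labels. Nothing says that same-numbered mice share a cage, litter or batch.

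The counts were tested by edgeR 4.0.16 under R 4.3.3. Low genes were dropped by filterByExpr (minimum count 10), libraries were scaled by TMM, and 1 quasi-likelihood fit held 4 group means, with Benjamini-Hochberg adjustment over 13968 genes at a threshold of 0.05. Limma 3.58.1 was loaded by edgeR. The code was tested on simulated data. Correlations used log2(CPM + 1) and 100000 permutations. Exon lengths came from GENCODE M39, and promoters from the RefSeq table of GRCm38.p6, whose windows were placed on GRCm39 by exact match. Depth of 18368994 to 23877131 counts sets the precision of low genes such as Cnn1.

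The 10 genes, the other gene lists and the rule for named genes (every list gene past the threshold may be named, and the 5 genes most correlated with Acta2 and with Myh11) were chosen with earlier results of these data known. Alternatives were DESeq2 1.42.0 by adjusted p and, separately, by the study's limits of an unadjusted p under 0.05 and a fold over 2. Beside these came other scalings, other filters and each compared pair of groups fitted alone. Further ones were a replicate block, control pairs with their counts summed (averaged for correlations), and each mouse left out. Of the smooth muscle genes that passed, 1 is counted but not reported by name here.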

Additional observations from a re-analysis of the deposited data

Results flagged for a closer look

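Among the 40 groups of 4 mice tested (10 genes in 4 groups), 4 had a mouse whose distance from its nearest neighbour took up more than the 95% critical share of the group's range, where chance gives about 1 in 20, or 2 of 40. KN046 mouse 1 was the lowest of its group for Myl9, at 2.08 CPM against 5.20 to 5.42 CPM in the other 3 mice, and for Cnn1, at 0.0533 CPM (1 count) against 0.827 to 0.883 CPM. It was also the lowest of its group for Acta2, Actg2, Mylk and Des and the highest for Cald1. In that mouse the hepatocyte markers summed to 8610 CPM and the leukocyte markers to 129 CPM, each the lowest of the KN046 group. In the control group, mouse 3 had the lowest Actg2, at 2.43 CPM against 3.60 to 3.76 CPM, and mouse 1 had the lowest Mylk, at 54.0 CPM against 57.6 to 58.0 CPM.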

How the results depend on the processing

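The 10 members in 7 comparisons gave 70 results and 1792 values under alternative settings, of which 1711 kept their direction and side of the threshold, 63 changed sign and 18 newly passed. The count of members called, 0 in the main analysis, became 1 with SB525334 against control when those groups were fitted alone (Myl9), 1 by DESeq2 and 2 with the groups alone for the combination against control (Acta2, then Acta2 and Mylk), 1 by DESeq2 for the combination against KN046 (Cald1), and 1 by DESeq2 and 1 with the replicate block for the averaged SB525334 effect (Acta2 both times). Leaving out 1 mouse gave 0 to 2 calls for the combination against control, 0 to 1 for the combination against KN046 and 0 to 3 for the averaged effect. In the replicate block the adjusted p of Acta2 was 0.0495 and the log2 fold change −0.54; not every same-numbered pair deviated together (r −0.48 to 0.53 over 24 pairs, median 0.08, 11 over 0.1, beside a median of −0.03 and 19 over 0.1 among 72 pairs of other numbers, and 6 of 16 libraries closest to their own number), so the numbers were not taken as pairs. Sign changes affected 23 results with main log2 fold changes of at most 0.53 in size. Library totals without scaling factors gave 0.00823 for Tpm1 and 0.0195 for Des with SB525334 against control, −0.00715 for Cald1 in the combination against SB525334 and 0.0158 for Tpm2 in the averaged effect, while the median of all genes moved by −0.04 to 0.04. The other sign changes came with 1 mouse left out, and the ranges that follow cover all alternative settings. With SB525334 against control they were −0.12 to 0.0489 for Tpm1 and −0.0297 to 0.16 for Tpm2. For Cald1 they were −0.0868 to 0.00884 and for Des −0.12 to 0.10. With KN046 against control they were −0.35 to 0.24 for Actg2, −0.0718 to 0.69 for Myh11 and −0.26 to 0.0732 for Myl9. With the combination against control they were −0.16 to 0.23 for Actg2, −0.0434 to 0.13 for Tpm1 and −0.0494 to 0.0423 for Cald1. Against KN046 the combination gave −0.17 to 0.41 for Actg2 and −0.40 to 0.0491 for Myl9, and against SB525334 −0.40 to 0.0307 for Actg2, −0.37 to 0.85 for Myh11, −0.0297 to 0.18 for Tpm2 and −0.0263 to 0.0834 for Cald1. The averaged effect gave −0.18 to 0.28 for Cnn1 and −0.0903 to 0.0383 for Tpm2, and the interaction −0.32 to 0.18 for Acta2, −0.37 to 0.21 for Actg2, −0.83 to 0.59 for Myh11, −0.0504 to 0.26 for Mylk and −0.13 to 0.0247 for Tpm1. The cause was not tested. A fit of compared groups alone could not be made for the averaged effect and the interaction.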
